A study of Rattus norvegicus with 9 samples.

Results

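The autosomal regions with a different Egr1 signal between diestrus females and males in the medial prefrontal cortex (mPFC) were examined by ChIP-seq, the sequencing of DNA fragments that an antibody brings down together with the protein bound to them. The regions are those on chromosomes 1 to 20 in the list that the authors deposited for this pair of groups, 634 of its 691 regions, and the lists of the whole study hold 5690. All animals were Sprague Dawley rats, 8 weeks of age, without any genetic modification or drug treatment. The diestrus group held 4 females killed on the first day of diestrus, a stage of low ovarian hormones, and the male group held 3 males (labelled M). Each library came from 1 animal. Chromatin was sheared to fragments of 200 to 500 bp and precipitated with 4 μg of an antibody against Egr1, and regions were placed on the Rnor_5.0 genome. Because the list holds only regions that the authors called different between these same libraries, direction and size of the differences are described here without any test, and the cell types of the tissue could not be checked against marker genes.

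Egr1 is a zinc finger transcription factor that binds GC-rich DNA. It is the product of an immediate early gene, whose transcription rises within minutes of synaptic activity or growth factor signaling, and it takes part in synaptic plasticity and memory in the cortex. The mPFC controls emotional and executive behavior and expresses receptors for estradiol and progesterone, the ovarian hormones that rise in proestrus and are low in diestrus. In ChIP-seq, a region with more reads is one where more of the precipitated DNA fragments lay, and it can gain reads through more bound protein, more bound cells, or more DNA and open chromatin in the background. In whole tissue these cannot be told apart.

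Egr1 signal was lower in diestrus than in males in most of the autosomal regions. Of the 634 regions, 394 (62.1%, Wilson 95% interval 58.3% to 65.8%) had a lower mean in diestrus and 240 (37.9%) a higher mean. Over all 691 listed regions, the X chromosome and mitochondrial DNA included, 57.6% were lower and 42.4% higher. These intervals cover counting error only. In the regions higher in diestrus, the median of the group means was 6.31 normalized reads per region in diestrus and 0.96 in males, with a median log2 ratio of 2.71 and a range of 1.23 to 4.97 over the 239 regions with reads in both groups. In the regions lower in diestrus, these medians were 0.83 and 6.47 normalized reads, with a median log2 ratio of -2.98 and a range of -4.86 to -0.81 over 387 regions. The group with less signal was thus close to empty in both directions. With 1 normalized read added to both means, the median log2 ratios were 1.92 and -2.05.

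**Figure D1:**
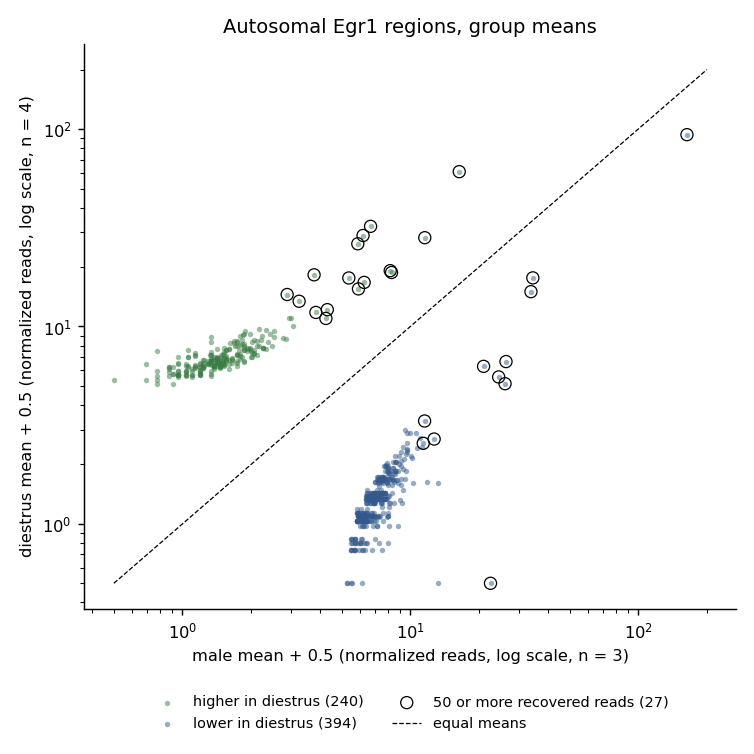
Mean Egr1 signal of each of the 634 autosomal regions in males (x axis, n = 3) and in diestrus females (y axis, n = 4), in normalized reads with 0.5 added, both axes logarithmic. Regions higher in diestrus (green, 240) lie above the dashed line of equal means and regions lower in diestrus (blue, 394) below it. Regions with 50 or more reads (ringed, 27) are few, and most others gather at about 6 normalized reads in the group with more signal.

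Few reads stood behind most regions. Each library's value of 1 read was taken from the steps of the listed values, and the reads of a region were then counted over all 7 libraries. The median was 25.50 reads for regions higher in diestrus (range 17 to 267) and 27 for regions lower (range 18 to 927). Under 30 reads in all stood behind 72.1% of the higher and 61.2% of the lower regions, and 50 or more behind 16 and 11 regions, respectively. The median region was 500 bp long in both directions, and the longest were 1050 bp and 1600 bp.

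The value of 1 read was 0.954, 1.373, 1.183, and 1.182 normalized reads in the 4 diestrus libraries and 1.244, 0.817, and 0.558 in the 3 male libraries. It is smaller in a deeper library if values were scaled to depth, which the sources used here do not state. Here and in what follows, libraries are given in the order in which the deposited list holds them, which carries no sample names. The means were 1.173 ± 0.171 (SD, n = 4) and 0.873 ± 0.347 (SD, n = 3), a difference of 0.300 (p = 0.229, two-sided exact permutation test over 35 splits, in which the smallest possible p is 0.0571). If values were scaled to depth, the deepest library, the third male, was 2.46 times as deep as the shallowest, the second diestrus library. The part of depth in the direction of the regions was not tested. The study pooled libraries for sequencing in 4 tubes, each of the first 3 with a male and a diestrus animal and the last with diestrus animals, but values within tubes could not be given, because the listed values are not tied to named animals.

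Absence of reads was common in the group with less signal. Among the 394 regions lower in diestrus, 39.1%, 56.1%, 40.6%, and 45.9% were at 0 in the respective diestrus libraries, and none was at 0 in a male library. The largest share was found in the second diestrus library, in which 1 read had the largest value. Only 30 of these regions held a read in every diestrus library, whereas 99 were at 0 in 1 library, 185 in 2, 73 in 3, and 7 in all 4. Among the 240 regions higher in diestrus, 99, 48, and 67 were at 0 in the respective male libraries, and none in a diestrus library.

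The groups did not overlap in 633 of the 634 regions, that is, every library of the one group was above every library of the other. Of these, 239 were higher and 394 lower in diestrus. Over all 691 listed regions this share was 99.9% (42.3% higher and 57.6% lower in diestrus), so that it is a property of the list. The exception lay on chromosome 2 from 166419951 to 166420850, with 41.03, 24.72, 13.01, and 31.92 normalized reads in the diestrus libraries and 16.17, 9.80, and 7.25 in the males, where the third diestrus library was below the first male. The signal of the higher group was spread over its libraries. In regions higher in diestrus, the library with most signal was the first in 56 regions, the second in 50, the third in 69, and the fourth in 65. In regions lower in diestrus, the male library with most signal was the first in 127 regions, the second in 119, and the third in 148. The median coefficient of variation within the higher group was 24.1% and 17.4%, respectively. Because the regions were called on these same libraries, this spread is shaped by the selection and is no measure of agreement between animals.

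Regions lower in diestrus lay inside genes more often than regions higher in diestrus. In total, 124 of 394 lower regions (31.5%, Wilson 95% interval 27.1% to 36.2%) were inside or overlapped their nearest gene, against 44 of 240 higher regions (18.3%, interval 13.9% to 23.7%). At the other end, 61 lower regions (15.5%, interval 12.2% to 19.4%) and 81 higher regions (33.8%, interval 28.1% to 39.9%) lay more than 100 kb outside the nearest gene. The median distance to the start of the nearest gene was 38506 bp for lower and 67085 bp for higher regions. Within 5 kb of a gene start lay 56 lower (14.2%) and 18 higher regions (7.50%), and within 1 kb 11 and 4. Among those of the same regions with at least 30 reads, 33.3% of 153 lower (interval 26.4% to 41.1%) and 19.4% of 67 higher regions (interval 11.7% to 30.4%) were inside or overlapped a gene, and these intervals overlap.

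The regions were spread over all autosomes. Chromosome 1 held the most, with 36 regions higher and 63 lower in diestrus. Chromosome 10, with 10 higher and 32 lower, and chromosome 7, with 9 and 27, had the smallest shares of higher regions among chromosomes with more than 30 regions, with Wilson 95% intervals of 13.5% to 38.5% and 13.8% to 41.1%. Chromosome 2 was divided evenly, with 29 and 28 regions (50.9%, interval 38.3% to 63.4%). The intervals of chromosomes 10 and 2 overlapped.

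**Figure D2:**
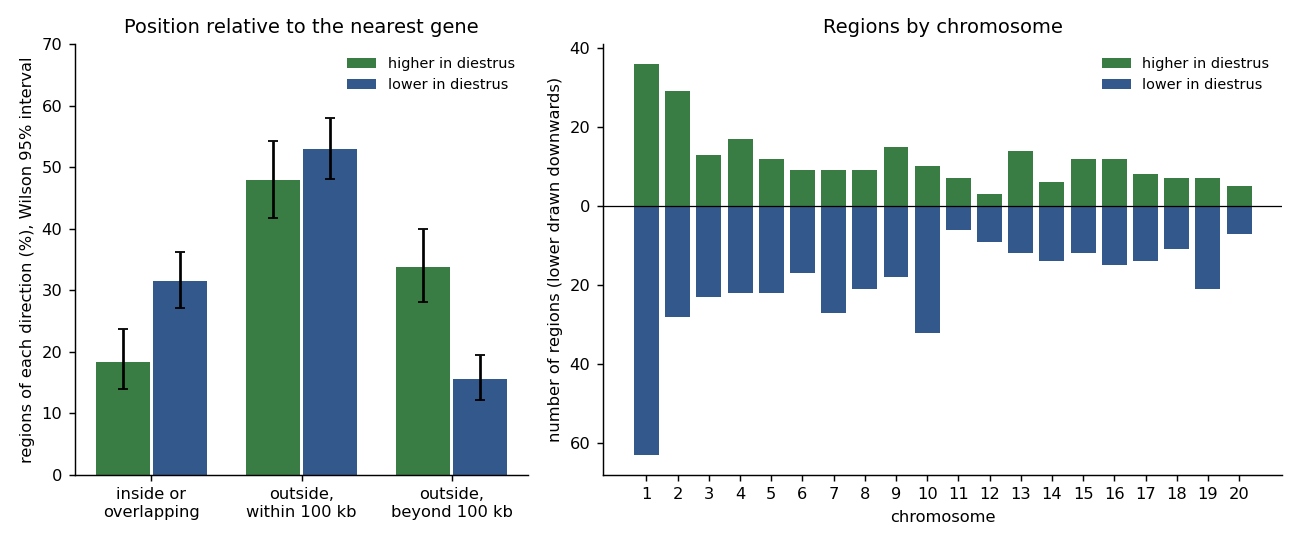
Left, percentage of the regions higher in diestrus (green, 240) and lower in diestrus (blue, 394) inside or overlapping the nearest gene, outside within 100 kb, and outside beyond 100 kb, with Wilson 95% intervals as error bars. The blue bar is taller inside genes (31.5% against 18.3%) and the green bar beyond 100 kb (33.8% against 15.5%). Right, number of regions on each autosome, higher upwards and lower downwards, with the most on chromosome 1 (36 and 63).

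A start of a gene was overlapped by 5 regions, 4 lower and 1 higher in diestrus, none with a symbol in the sources used here. They were singled out for their position, after their values had been seen. The region on chromosome 18 from 70113801 to 70114300 held 0.95, 0.00, 0.00, and 0.00 normalized reads in the diestrus libraries and 4.98, 4.90, and 5.02 in the males. On chromosome 1 from 219521101 to 219521600, the values were 0.00, 0.00, 1.18, and 0.00 against 4.98, 5.72, and 4.46. In both of these start regions, a lone read in 1 of the 4 diestrus libraries faced at least 4 reads in each male. A further start region on chromosome 1, from 100716951 to 100717450, held 0.95, 1.37, 0.00, and 2.36 against 4.98, 6.53, and 8.37. The other two belong to the clusters on chromosomes 1 and 12 that are described next.

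Several regions of the same direction lay close together at a small number of loci. When regions within 30 kb were joined and loci of at least 100 reads kept, 5 loci with 18 regions held 14.4% of the 20264 reads in all autosomal regions. Of the 591 nearest genes, 554 were nearest to a single region. Another 37 had 2 or more regions, all higher in 13 genes, all lower in 13, and of both directions in 11. Only 4 genes had 3 or more, and each of these had regions of 1 direction.

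The strongest locus with higher signal in diestrus spanned 33350 bp on chromosome 1, from 236144951 to 236178300, and held 6 regions, of which 4 were nearest to ENSRNOG00000012067. Summed over the locus, the diestrus libraries held 138.4, 127.7, 141.9, and 303.8 normalized reads and the male libraries 18.7, 83.3, and 14.5, on average 178 ± 84.1 (SD, n = 4) against 38.8 ± 38.6 (SD, n = 3), a log2 ratio of 2.20. Every diestrus library was above every male library, but the fourth diestrus library and the second male library stood well above the rest of their groups. The region over the start of the gene (236162901 to 236163950) held the most reads of all higher regions, 267, with 40.08, 45.32, 59.13, and 96.93 normalized reads in diestrus and 7.47, 31.85, and 8.37 in males. Its log2 ratio was 1.93. Without the second male library, the log2 ratio with 0.5 normalized reads added was 2.85 in place of 1.89, and in the other 3 regions of this gene it was 3.00, 3.99, and 3.39 in place of 2.16, 2.27, and 2.27. The background of the locus, which is the group mean divided by the deposited enrichment, moved with the signal. It came to 160 normalized reads in diestrus and 49.9 in males, a log2 ratio of 1.68, and the enrichment over background was only 0.90 to 1.25 in diestrus and 0.45 to 1.42 in males.

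A second locus with higher signal lay on chromosome 2 from 166404601 to 166431600, with 4 regions upstream of ENSRNOG00000009697, the nearest of them 36106 bp from its start. The diestrus libraries held 108.8, 68.7, 41.4, and 93.4 normalized reads in sum and the males 39.8, 27.0, and 20.6. The groups were separate by a small margin, between the third diestrus library and the first male. The means were 78.1 ± 29.5 (SD, n = 4) and 29.1 ± 9.78 (SD, n = 3), a log2 ratio of 1.42, beside a log2 ratio of the background of 0.63. This locus also held the region with the smallest ratio of all higher regions, from 166431001 to 166431600, with a log2 ratio of 1.23.

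The locus with most reads was lower in diestrus. It spanned 25500 bp on chromosome 17, from 91099801 to 91125300, with 3 regions inside ENSRNOG00000028913 and 1296 reads. The diestrus libraries held 137.4, 137.3, 132.4, and 92.2 normalized reads in sum and the males 283.7, 170.7, and 237.0, on average 125 ± 21.9 (SD, n = 4) and 230 ± 56.8 (SD, n = 3). All males were above all diestrus libraries. The log2 ratio was -0.88 and that of the background -0.52. Its region from 91124401 to 91125300 held 927 reads, the most of any autosomal region, and had the smallest difference among the lower regions, with a log2 ratio of -0.81.

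At the start of ENSRNOG00000050166 on chromosome 12, 3 regions from 37859051 to 37863850 were lower in diestrus. The sums were 13.4, 19.2, 11.8, and 18.9 normalized reads in diestrus and 78.4, 75.9, and 71.4 in males. Both groups were narrow here, with 15.8 ± 3.79 (SD, n = 4) against 75.2 ± 3.55 (SD, n = 3) and a log2 ratio of -2.25. The log2 ratio of the background was -1.65, and the enrichment lay between 0.74 and 1.01 in diestrus and between 1.10 and 1.60 in males.

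The fifth locus, on chromosome 14 from 95354051 to 95356750, was empty in diestrus. All 4 diestrus libraries were at 0 in both of its regions, whereas the males held 9.95, 16.33, and 11.71 normalized reads in the first and 21.15, 16.33, and 28.45 in the second. With a floor of 3 reads over the diestrus group, these regions were at least 14.4-fold and at least 25.0-fold lower in diestrus. The background of the diestrus group was 0 as well, which was not the case in any other autosomal region. The nearest gene start lay 745144 bp and 743944 bp away.

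Another 5 regions were at 0 in all diestrus libraries and 1 in all male libraries, each with 17 to 20 reads. The male means of these 5 were between 4.78 and 5.61 normalized reads, which put diestrus at least 5.43-fold to at least 6.38-fold lower. The region at 0 in all males, on chromosome 2 from 92848251 to 92848750, held 5.73, 4.12, 4.73, and 4.73 normalized reads in diestrus, and was at least 5.53-fold lower in males.

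At named genes, signal was compared in 33 regions nearest to 32 genes, 5.41% of the nearest genes. Symbols came from a part of the study's gene list that is ordered by identifier, so that these genes were not chosen by function. They are uneven over the genome, however. Most of their regions lie on chromosomes 10 to 14 and 20, and none on chromosomes 1 and 2, which hold the most autosomal regions. Of the 33 regions, 12 were higher and 21 lower in diestrus. The 15 with the largest ratios among those inside or within 5 kb of the gene were described in full.

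Mylk, Myh11, and Ptprc each held a region lower in diestrus. Within Mylk (ENSRNOG00000002215), the kinase that phosphorylates myosin light chains in smooth muscle, the region on chromosome 11 from 72270851 to 72271400 held 0.95, 0.00, 1.18, and 4.73 normalized reads in diestrus and 12.44, 8.98, and 7.25 in males, a log2 ratio of -2.47. Within Myh11 (ENSRNOG00000000029), the heavy chain of smooth muscle myosin, the region on chromosome 10 from 11474301 to 11474850 held 0.95, 0.00, 0.00, and 2.36 against 4.98, 8.17, and 5.58, a log2 ratio of -2.91. The fourth diestrus library was the highest of its group in both regions and still below every male. In Mylk, the background was lower in diestrus too, with a log2 ratio of -1.52, whereas in Myh11 it was 0.43. Within Ptprc (ENSRNOG00000000655), the leukocyte phosphatase CD45 that microglia also carry, the region on chromosome 13 from 60153551 to 60154150 held 0.00, 0.00, 2.37, and 0.00 against 7.47, 6.53, and 6.14, a log2 ratio of -3.51. All signal in diestrus came from 1 library. With 0.5 normalized reads added, the log2 ratio was -3.06 in place of -2.18 in Mylk and -3.05 in place of -2.34 in Myh11 without the fourth diestrus library, and -3.85 in place of -2.73 in Ptprc without the third.

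Regions within Slc46a3, Slc47a1, and Abhd5 were also lower. Within Slc46a3 (ENSRNOG00000000937), a transporter of the lysosome membrane, the region on chromosome 12 from 10845901 to 10846750 held 0.95, 0.00, 2.37, and 1.18 normalized reads in diestrus and 7.47, 15.51, and 11.16 in males, with a log2 ratio of -3.33. With 49 reads, it had the most among the lower regions described at named genes. Its background was also lower in diestrus, with a log2 ratio of -2.82, and the enrichment was 0.68 in diestrus and 0.97 in males, below the background level in both. Within Slc47a1 (ENSRNOG00000002355), which exports organic cations, the region on chromosome 10 from 47428001 to 47428500 held 0.00, 0.00, 1.18, and 0.00 against 6.22, 4.90, and 5.58. Within Abhd5 (ENSRNOG00000000221), a coactivator of the lipase that breaks down stored triglycerides, the region on chromosome 8 from 130154001 to 130154550 held 1.91, 0.00, 0.00, and 0.00 against 4.98, 5.72, and 8.37. Here a single diestrus library held all reads of its group, and the log2 ratios were -4.21 and -3.73. Without the diestrus library that held reads, the log2 ratio with 0.5 normalized reads added was -3.60 in place of -2.92 in Slc47a1 (the third library) and -3.78 in place of -2.81 in Abhd5 (the first library).

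Regions within Tsc22d1, Bbx, and Arhgap24 had the same direction. The region within Tsc22d1 (ENSRNOG00000001030), a leucine zipper protein induced by TGF-beta, on chromosome 15 from 62306751 to 62307250, held 1.91, 1.37, 0.00, and 0.00 normalized reads in diestrus and 8.71, 6.53, and 5.58 in males. The region within Bbx (ENSRNOG00000001971), an HMG-box protein, on chromosome 11 from 56327301 to 56327800, held 0.00, 1.37, 1.18, and 1.18 against 6.22, 5.72, and 6.69. Their log2 ratios were -3.08 and -2.74, with background ratios close to 0. Arhgap24 (ENSRNOG00000002095), a GTPase-activating protein for Rac, was the only named gene with regions of both directions. The region within it, on chromosome 14 from 8561401 to 8561900, held 0.95, 0.00, 2.37, and 0.00 normalized reads in diestrus and 4.98, 5.72, and 7.25 in males. The other, 81430 bp upstream from 8749501 to 8750000 and described after its values had been seen, held 4.77, 4.12, 8.28, and 5.91 against 1.24, 0.82, and 0.56, so that the order of the groups was turned round. Without the third diestrus library, the log2 ratio of the region within the gene, with 0.5 normalized reads added, was -2.99 in place of -2.28.

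Regions higher in diestrus lay at Fyn, Il1rap, Lnx1, Hectd4, N6amt1, and Uspl1. Within Fyn (ENSRNOG00000000596), a Src family kinase that phosphorylates NMDA receptors at synapses, the region on chromosome 20 from 46269301 to 46270250 held 14.31, 13.73, 14.19, and 9.46 normalized reads in diestrus and 2.49, 4.08, and 1.67 in males. With 55 reads, it was the only region at a named gene with 50 or more. The means were 12.92 ± 2.32 (SD, n = 4) and 2.75 ± 1.23 (SD, n = 3), a log2 ratio of 2.23, and the enrichment was 2.08 in diestrus and 0.30 in males. The background had the opposite direction, with a log2 ratio of -0.56.

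Downstream of Il1rap (ENSRNOG00000001928), the accessory chain of the interleukin-1 receptor, the region on chromosome 11 from 83257651 to 83258200 lay 4507 bp from the gene. It held 9.54, 10.99, 5.91, and 8.27 normalized reads in diestrus and 0.00, 1.63, and 2.79 in males, with a log2 ratio of 2.56. The region within Lnx1 (ENSRNOG00000002272), a ubiquitin ligase for Numb, on chromosome 14 from 35939101 to 35939650, held 6.68, 6.87, 7.10, and 10.64 against 1.24, 3.27, and 1.12, a log2 ratio of 2.06. In both regions the lowest diestrus library was above the highest male. The region within Hectd4 (ENSRNOG00000001352), which belongs to the HECT family of ubiquitin ligases, on chromosome 12 from 42645301 to 42645800, held 6.68, 5.49, 4.73, and 7.09 against 0.00, 0.82, and 1.67.

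N6amt1 (ENSRNOG00000001603) encodes a methyltransferase that acts on the translation release factor, and the region within it, on chromosome 11 from 30636951 to 30637450, held 4.77, 8.24, 8.28, and 4.73 normalized reads in diestrus and 0.00, 0.00, and 1.67 in males. Its log2 ratio was 3.54, and its enrichment in diestrus of 7.70 was the highest of all autosomal regions, on a low background of 0.84 normalized reads. Uspl1 (ENSRNOG00000000909) encodes a SUMO protease, and the region within it, on chromosome 12 from 9027701 to 9028200, held 4.77, 9.61, 9.46, and 7.09 against 0.00, 0.00, and 3.35. In both regions, all male reads came from the third male library, in which 1 read had the smallest value. Without this library, the log2 ratio with 0.5 normalized reads added was 3.81 in place of 2.72 in N6amt1 and 4.04 in place of 2.34 in Uspl1.

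**Figure D3:**
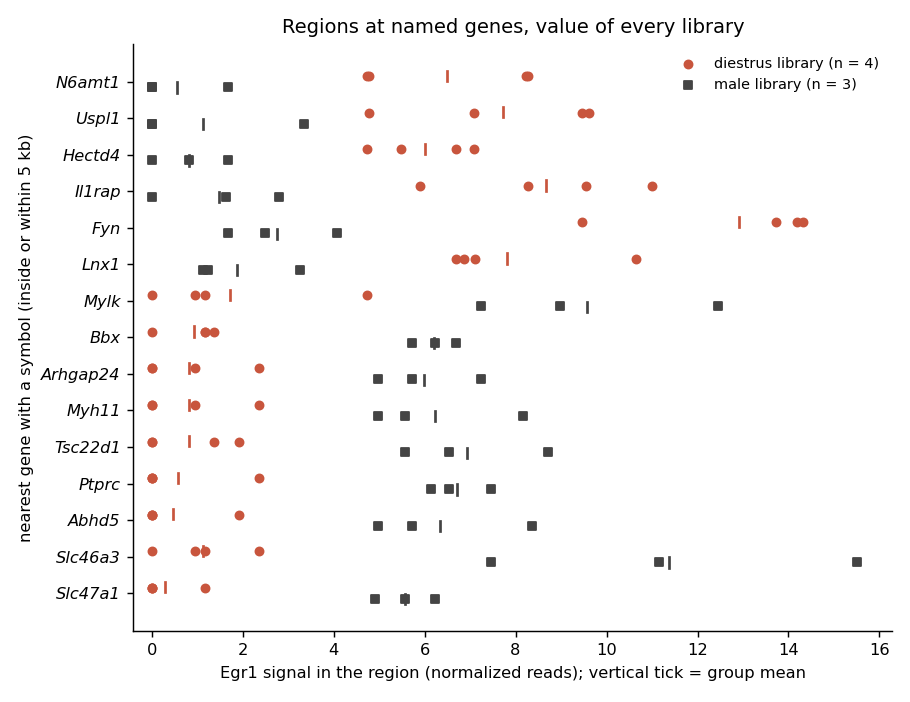
Egr1 signal in normalized reads (x axis) in the 15 regions with the largest ratios among those inside or within 5 kb of a gene with a symbol (y axis), which leaves out the lower region within Ppap2c, with a point for each diestrus library (red circles, n = 4) and each male library (grey squares, n = 3) and a vertical tick for each group mean. The groups are separate in all 15 regions (6 higher and 9 lower in diestrus), as in 99.9% of all 691 listed regions. The Fyn region has the highest diestrus mean, 12.92.

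Of the gene lists drawn up for the mPFC, 1 gene had an autosomal region. The lists covered immediate early genes and the Egr family, glutamate receptors, GABA, synaptic vesicles, synaptic adhesion and scaffold, axon guidance, calcium and potassium channels, extracellular matrix and integrins, sex steroid receptors, and markers of other cell types. Of their 172 genes, 20 had an identifier in the sources used here, and 0 of these were nearest to a higher and 1 to a lower region. Of all 1258 genes with a symbol, 32 (2.54%) were nearest to an autosomal region, and 1 of 20 is not read as different from this background. It was Pdgfra (ENSRNOG00000002244), the growth factor receptor that marks oligodendrocyte precursors, and its region on chromosome 14 from 35253251 to 35253750 lay 102685 bp away. It held 0.95, 2.75, 1.18, and 0.00 normalized reads in diestrus and 7.47, 4.90, and 8.92 in males, a log2 ratio of -2.54. The other genes of the lists were not looked up, so that nothing follows for most of each list.

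The regions with the largest ratios had few reads. Among the 8 higher and 8 lower regions with the largest ratios, the highest log2 ratio with reads in both groups was 4.97, upstream of RGD1304622 (ENSRNOG00000000040) on chromosome 13 from 77825951 to 77826450. The diestrus libraries held 4.77, 9.61, 4.73, and 4.73 normalized reads and the males 0.00, 0.00, and 0.56, a single read. On chromosome 1 from 152019151 to 152019750, the values were 9.54, 5.49, 8.28, and 4.73 against 0.00, 0.82, and 0.00. The lowest log2 ratio was -4.86, on chromosome 19 from 29079601 to 29080200, with 0.95, 0.00, 0.00, and 0.00 in diestrus and 7.47, 7.35, and 6.14 in males. In all 3 regions, the size of the ratio rests on 1 read in the group with less signal. In the region on chromosome 1 (152019151), the log2 ratio with 0.5 normalized reads added was 3.91 in place of 3.29 without the second male library. The other regions of this kind held 20 to 34 reads, apart from the pair on chromosome 14 that was empty in diestrus.

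The signal of the higher group was above background in nearly all regions, but seldom by much. The enrichment is the group mean divided by background, and regions entered the list through the group where they are high. Counts above background are therefore largely a property of the list. In regions higher in diestrus, the deposited enrichment in diestrus had a median of 2.27 and was above 1 in 237 of 240 regions and above 3 in 46. In males, the median of these regions was 0.37. In regions lower in diestrus, the enrichment in males had a median of 1.97 and was above 1 in 386 of 394 regions and above 3 in 44, with a median of 0.28 in diestrus. The ratio of the enrichments had the same direction as the ratio of the reads in 237 of 238 higher and 385 of 387 lower regions where both could be computed, beside 99.4% of all listed regions.

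The background was compared between regions of few and of many reads. Under 50 reads, the background of the higher regions had a median log2 ratio of 0.00 beside a median log2 ratio of the reads of 2.74 (n = 222), and that of the lower regions -0.24 (n = 377) beside a median of the reads close to that of all lower regions. With 50 or more reads, the background ratio was 0.77 beside 1.78 in higher regions (n = 16) and -0.89 beside -2.02 in lower regions (n = 10), and it had the direction of the reads in 14 of 16 and 10 of 10 regions. Without the genes nearest to 3 or more regions, the background ratio was 0.60 (n = 8) and -0.58 (n = 4), and with 40 or more reads it was 0.69 (n = 19) and -0.62 (n = 32). The median log2 ratio of the enrichments was 2.80 under 50 reads and 0.77 with 50 or more in higher regions, and -2.81 and -0.51 in lower regions. The ratio of the reads was smaller in size in the regions with more reads too. Many of the regions with 50 or more reads lie at the same loci and are not independent. The sources used here do not say whether the background was made from the Input libraries, and its part in the differences was not tested.

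**Figure D4:**
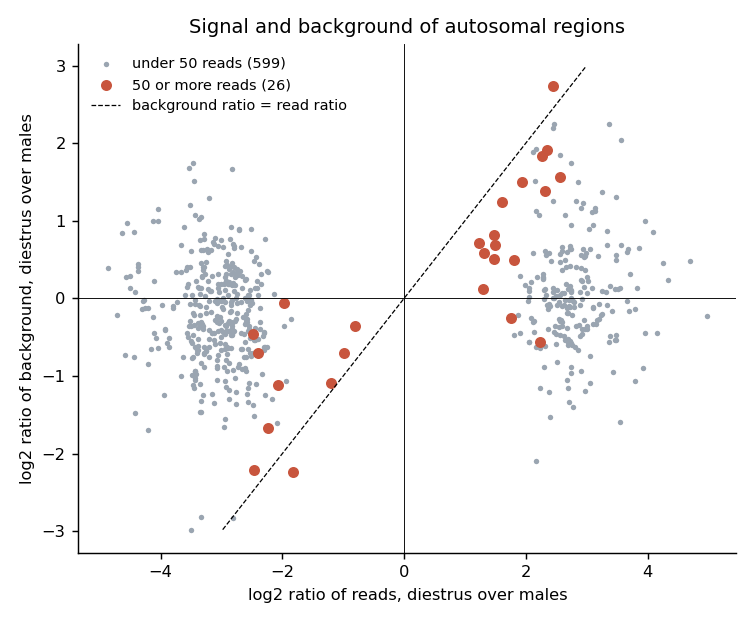
Log2 ratio of the background (y axis) against the log2 ratio of the reads (x axis), both diestrus over males, for the autosomal regions under 50 reads (grey, 222 higher and 377 lower in diestrus) and the 26 with 50 or more (red) in which both could be computed. Grey points scatter around a background ratio of 0 on both sides, and 24 of the 26 red points lie in the quadrants where background and reads have the same direction.

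Few of the regions were also listed when proestrus females, killed at the stage of high ovarian hormones, were compared with either group. In proestrus versus males, 26 of the 634 regions (4.10%) overlapped 25 of 2087 autosomal regions (1.20%) by at least 1 bp, 8 higher and 18 lower in both female stages than in males. Both comparisons use the same male libraries, so that a common direction is what regions called in both would show from these libraries alone and is no independent support. The tables were normalized separately, and the overlapping regions mostly differ in their ends, so that values set side by side can be of different stretches. Among them were all 3 regions of the locus on chromosome 12, all 3 of that on chromosome 17, and both on chromosome 14. The locus on chromosome 2 had 1 region among them. At the start of ENSRNOG00000050166, proestrus held a mean of 2.46 normalized reads and males 22.28 in that table, beside 6.14 in diestrus and 25.79 in males here. In the regions on chromosome 14, proestrus was listed at 0 in both, with male means of 14.26 and 24.77. The region within Slc46a3 was at 0 in proestrus and 12.81 in males, and that within Lnx1 was at 11.07 in proestrus and 2.05 in males.

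In proestrus versus diestrus, which shares the diestrus libraries, 15 of the 634 regions (2.37%) overlapped 15 of 1654 autosomal regions (0.907%). In 11 of them, diestrus was lower than males here and lower than proestrus in the other table, as the diestrus libraries common to both tables would also give. On chromosome 16 from 79863101 to 79863600, diestrus held a mean of 0.30 and males 5.51 here, and proestrus 5.38 and diestrus 0.26 in the other table. The region with the lowest log2 ratio, on chromosome 19, held 0.24 in diestrus and 6.98 in males here, and 6.07 in proestrus and 0.21 in diestrus there. In 2 regions of the locus on chromosome 1, diestrus was above males here and above proestrus in the other table. The region from 236144951 to 236146000 held 25.74 in diestrus and 5.38 in males here, and 2.98 in proestrus and 19.82 in diestrus there. The remaining 2 regions, on chromosomes 6 and 17, met those of the other table at their edges only, so that the means of the 3 groups there belong to different stretches and were not put in order. When at least 50% of both regions had to overlap, 12 of the 15 regions were left, 10 with diestrus below both males and proestrus and 2 with diestrus above both.

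**Figure D5:**
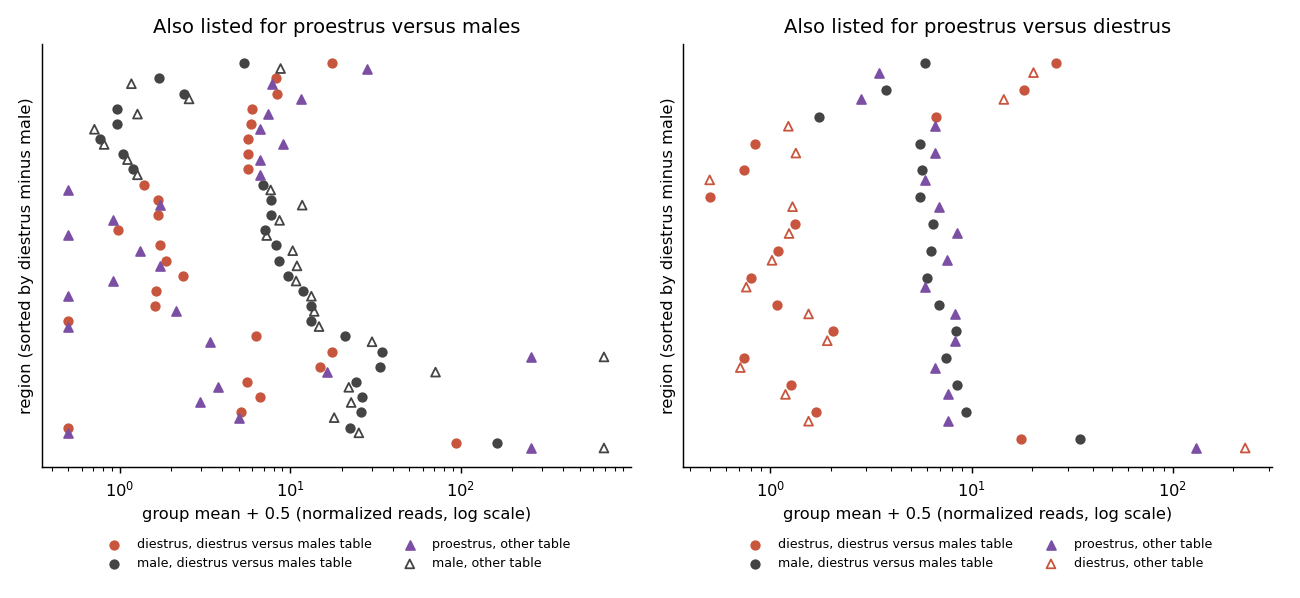
Group means in normalized reads with 0.5 added (x axis, logarithmic) of the autosomal regions (1 row each) also listed for proestrus versus males (left, 26) and for proestrus versus diestrus (right, 15). Circles are the diestrus (red) and male (grey) means of diestrus versus males, filled triangles the proestrus means and open triangles the control means of the other table, which was normalized separately. On the left, proestrus is on the same side of the male mean of its own table as diestrus is of the male mean here, with the male libraries common to both tables. On the right, diestrus is below both males and proestrus in 11 of 15 rows.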

How the data were processed

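The mPFC of 4 diestrus females and 3 males was analysed, with groups taken from the labels. The authors trimmed reads with Trimmomatic 0.32, mapped them with Bowtie2 2.1.0 to Rnor_5.0, kept unique reads of mapping quality of at least 30 with SAMtools 0.1.19, removed duplicates with Picard 1.84 and outlier libraries by irreproducibility discovery rate, ran DiffReps, and assigned nearest genes with ChIPpeakAnno. The sources used here do not give window, cut-off, normalization, or background. Per region, the deposited means of the groups are a signal in normalized reads, the deposited enrichment is a ratio of the mean to background, and the deposited lists of library values (unit other) hold normalized reads without sample names. The authors' deposited fold changes, p-values, and window statistics hold their own comparison and were not used.

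Log2 ratios were computed from the group means. All 4837 library values lay within 0.1 of whole multiples of the value of 1 read, so that reads were recovered; this step was tested on simulated data. Log2 ratios with 0.5 normalized reads added ranked the regions. Named were the 8 regions of each direction with the largest ratios among those of at least 20 reads and without overlap of groups, the 3 of each direction with most reads, up to 15 at genes with a symbol and any in a gene list, genes with 3 or more regions, shared regions with most reads, and the smallest ratio of each direction. Members, lists, and rules were chosen with earlier results of these data known. Symbols were taken from 1258 identifiers of the study's gene list, since the reference table pairs no Ensembl identifier. No sequence of Rnor_5.0 was used here. Alternatives were filters on reads and ratio, 0.5 or 1 normalized reads added, medians, unscaled reads, 50% overlap, and each library left out. Loci and the split at 50 reads were chosen after seeing the data. Computations used scipy 1.17.1, pandas 2.3.3, and numpy 2.4.6 under Python 3.11.15.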

Additional observations from a re-analysis of the deposited data

Results flagged for a closer look

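Of 47 sets of 4 diestrus values examined, 16 held a library whose gap to the nearest other exceeded the 95% limit of Dixon's test, 6 in higher and 10 in lower regions, where chance gives about 1 in 20 for continuous values. That rate does not apply to regions with 3 diestrus libraries at 0, where any read in the remaining library exceeds the limit by construction, so that the number found is not read against chance. The library apart held 0.95 normalized reads, with the other diestrus libraries at 0.00, in the regions starting at 177198201 on chromosome 1 and at 29079601 on chromosome 19. It held 1.18 at 200791101 on chromosome 1, at 15969801 on chromosome 10, and within Slc47a1, again with the others at 0.00. Values of 2.37 within Ptprc, 1.91 within Abhd5, and 1.91 at 88470501 on chromosome 9 stood alone in the same way. Within Bbx, the library apart was the one at 0.00.

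In higher regions, the library apart was above the rest with 9.61 upstream of RGD1304622, 10.64 within Lnx1, 8.27 at 267989851 on chromosome 2, and 8.24 at 78120701 on chromosome 8, and below the rest with 9.46 within Fyn. A read is worth 0.954 to 1.373 normalized reads in the diestrus libraries. Gaps of this size, and that within Bbx, are therefore steps of a few whole reads and of scaling. At the loci with most reads, the fourth diestrus library held 62.65 at 236149401 on chromosome 1, where the next held 23.34, and 70.93 at 91124401 on chromosome 17, where the next held 100.24.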

How the results depend on the processing

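No direction was reversed in 109 values of the main results or in 322 values of the 46 named regions with 1 library left out, of which 50 moved by more than their spread. Since the groups of the regions do not overlap, apart from 1, leaving out a library could hardly reverse a direction, and this is no sign of stability. Of the main values, 24 moved. With at least 30 reads, 67 regions were higher and 153 lower, 66 and 153 did not overlap, 66 and 149 had enrichment of the same direction, and the median log2 ratios were 2.31 and -2.58. With 0.5 normalized reads added, these medians were 2.23 and -2.42, with 1 added 1.92 and -2.05, from medians of libraries 2.59 and -3.18, and from unscaled reads 2.17 and -3.53. The cause was not tested. Counting regions within 5 kb as inside genes gave 26.2% of higher and 39.8% of lower regions. With each library left out in turn, the median log2 ratio lay between 2.49 and 2.82 for higher regions and between -3.03 and -2.88 for lower regions. Without the genes of 3 or more regions, an alternative chosen after seeing the data, 232 higher and 388 lower regions were left. No paired analysis was possible because the diestrus and male labels share no replicate numbers and the listed values carry no sample names. Only called regions were analysed, and most regions rest on under 30 reads, so that a group at 0 is not shown to lack binding.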
